A study of Mus musculus with 2 samples.

Results

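The genes Calb1, Calb2, Pvalb and Hpca were followed across the regions of a mouse brain section. They were taken by their symbols from the deposited feature table and are 4 of its 19465 genes. The assay, Visium CytAssist, ligates pairs of probes on their target RNA in the tissue and captures the products on a grid of barcoded spots, where each captured molecule is counted once through its unique molecular identifier (UMI). The labels name 2 samples of male mice aged 6 months: 1 brain section from the G2-3 line, with alpha-synuclein carrying A53T, and 1 from a wild-type (WT) mouse. Both samples came with an identical matrix, equal byte for byte. The copies were counted as 1 sample. No genotype could be compared or assigned, and every comparison below is between places in 1 section. Spots are not replicates, so no test was run, and all intervals are 95% intervals that cover counting error only.

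All 4 genes encode proteins that bind calcium through EF-hand loops. Calb1 (calbindin), Calb2 (calretinin) and Pvalb (parvalbumin) are mobile buffers that shape calcium signals in neurons, and each marks particular neuron types: calbindin the granule cells of the dentate gyrus, calretinin several interneuron and brainstem types, and parvalbumin fast-spiking interneurons and many fast-firing brainstem neurons. Hpca (hippocalcin) is a calcium sensor of the neuronal calcium sensor family, best known from pyramidal neurons of hippocampus and cortex.

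In the GRCm38.p6 annotation, Calb1 (ENSMUSG00000028222) lies at chr4:15881264-15906709 and Hpca (ENSMUSG00000028785) on the same chromosome at chr4:129111570-129125919. Calb2 (ENSMUSG00000003657) lies at chr8:110142526-110168212 and Pvalb (ENSMUSG00000005716) at chr15:78191112-78206400. The rule kept 2485 tissue spots with 20997947 UMIs, between 1183 and 80174 per spot with a median of 6686. Over these spots Calb1 had 5149 UMIs, in 1051 spots, and at most 130 in a spot. Calb2 had 4482 UMIs in 1136 spots and at most 68 in a spot. Pvalb had 6254 UMIs in 1452 spots and at most 47 in a spot. Hpca had 4598 UMIs in 1408 spots and at most 42 in a spot. Probes differ in how well they capture their transcripts, so levels are compared between regions for each gene and not between genes.

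The spots fell into 17 regions, each called here by its leading 2 genes, and 4 classes were set from marker genes. A spot is a small area that can hold several cells. The granule cell class was the C1ql2/Pcdh20 region, with 67 spots and a median of 23395 UMIs per spot, and its 9 dentate granule cell markers summed to 2532 CPM, that is UMIs per 1000000 UMIs of the class. The hindbrain class was the Irx2/Cdh23 region, with 189 spots and a median of 10895 UMIs, where 11 Hox, Irx2, Barhl1 and other hindbrain markers summed to 932 CPM and none was at 0. The midbrain class was the Six3/Cartpt region, with 480 spots and a median of 5256 UMIs. Its name rests on only 3 markers, which include Pou4f1 and Lhx9, and its 10 midbrain markers summed to 151 CPM. In the same spots the 9 dentate granule cell markers summed to 284 CPM and the 10 cortex markers to 182 CPM. Of 7 white matter markers, 6 reached the fold set for markers there, so the midbrain name is the least secure. The cortex class joined the Clec18a/Igfn1 region of 138 spots and the Myl4/Col5a1 region of 187 spots, and its 10 cortex markers summed to 577 CPM. Of 6 cerebellar markers, 4 were at 0 in the hindbrain class. White matter markers summed to 507 CPM in the granule cell class, 10886 CPM in hindbrain, 13324 CPM in midbrain and 2548 CPM in cortex, and their part in the results below was not tested.

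**Figure D1:**
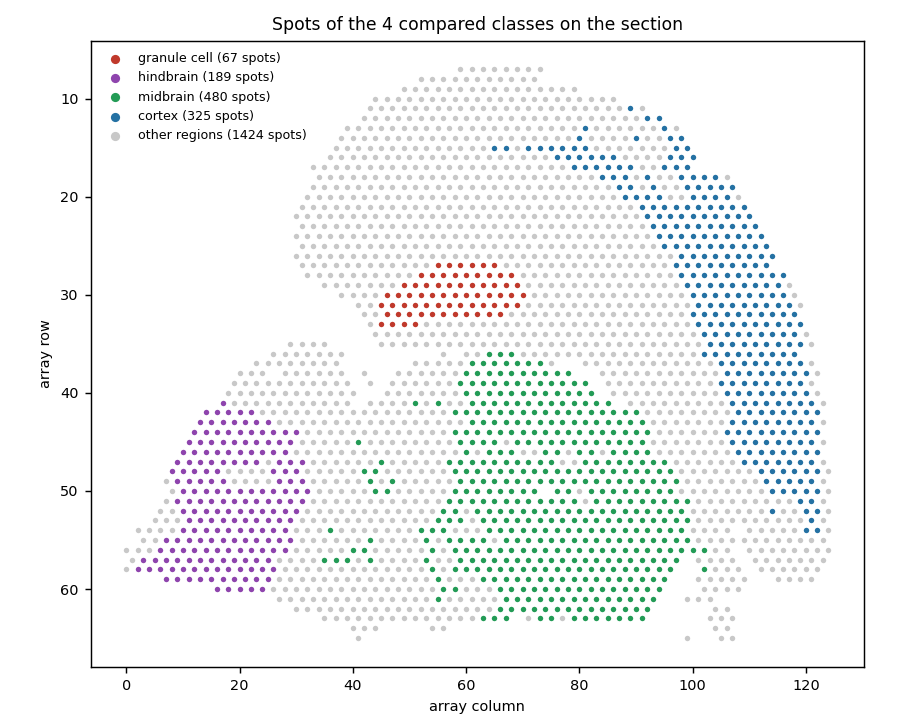
Position of the 2485 spots on the capture grid (array column against array row, in grid units), with the granule cell class in red, hindbrain in purple, midbrain in green, cortex in blue and the other regions in grey. The 67 granule cell spots form a compact band, the 189 hindbrain spots lie at low columns and the 325 cortex spots at high columns.

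Calb1 was the granule cell gene of the set. The 67 granule cell spots held between 0 and 130 Calb1 UMIs, with a median of 20. Hindbrain spots held between 0 and 2, midbrain spots between 0 and 5, both with a median of 0, and cortex spots between 0 and 19 with a median of 1. The ranges meet at the low end, but 43 granule cell spots had at least 10 Calb1 UMIs, against 0 hindbrain, 0 midbrain and 17 cortex spots. Scaled by depth, Calb1 stood at 1005 CPM in the granule cell class (interval 960 to 1051), 2.84 CPM in hindbrain (1.04 to 6.19), 85.4 CPM in midbrain (74.7 to 97.2) and 224 CPM in cortex (209 to 240). The granule cell class held 36.3% of the section's Calb1 UMIs in 2.70% of its spots. In spots that pool cells, fewer cells of a type and less RNA per cell cannot be told apart.

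Only 2 granule cell spots had no Calb1 UMI, and these were shallow, with a median of 6874 UMIs against 25282 in the spots with one. Calb1 was seen in 97.0% of granule cell spots and in 2.65% of hindbrain spots (exact binomial interval 0.864% to 6.07%). Thinned to 1000 UMIs per spot, these shares were 53.9% and 0.443%. The level in hindbrain, on 6 UMIs, was the lowest of the gene in the 17 regions.

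Calb2 showed the opposite order. Granule cell spots held 0 or 1 Calb2 UMI with a median of 0, hindbrain spots between 0 and 68 with a median of 9, midbrain spots between 0 and 17 with a median of 2, and cortex spots between 0 and 3 with a median of 0. All but 1 of the 189 hindbrain spots had a Calb2 UMI, and no granule cell spot had more than 1. The level was 8.06 CPM in the granule cell class (4.51 to 13.3), 956 CPM in hindbrain (914 to 998), 459 CPM in midbrain (434 to 486) and 20.9 CPM in cortex (16.5 to 26.2). Hindbrain held 45.0% and midbrain 27.4% of the section's Calb2 UMIs.

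Pvalb was also highest in hindbrain. Granule cell spots held between 0 and 13 Pvalb UMIs with a median of 1, hindbrain spots between 0 and 47 with a median of 12, midbrain spots between 0 and 27 with a median of 1, and cortex spots between 0 and 23 with a median of 2. Thinned to 1000 UMIs per spot, a Pvalb UMI was seen in 4.95% of granule cell, 64.8% of hindbrain, 29.8% of midbrain and 17.1% of cortex spots, against unthinned shares of 52.2%, 96.8%, 71.5% and 75.1% in the same order. The level was 39.8 CPM in the granule cell class (31.2 to 49.9), 1215 CPM in hindbrain (1168 to 1263), 401 CPM in midbrain (377 to 426) and 201 CPM in cortex (187 to 216). Of the 74 Pvalb UMIs in granule cell spots, 17.6% came from 1 spot.

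Hpca, the calcium sensor, was highest in cortex. Granule cell spots held between 0 and 42 Hpca UMIs with a median of 4, and hindbrain spots between 0 and 2 with a median of 0. Midbrain spots held between 0 and 11 with a median of 1, and cortex spots between 0 and 24, also with a median of 4. The level was 266 CPM in the granule cell class (243 to 291), 7.11 CPM in hindbrain (3.98 to 11.7), 197 CPM in midbrain (181 to 215) and 431 CPM in cortex (410 to 453). Like Calb1, Hpca was close to missing from hindbrain, with 15 UMIs over 189 spots.

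**Figure D2:**
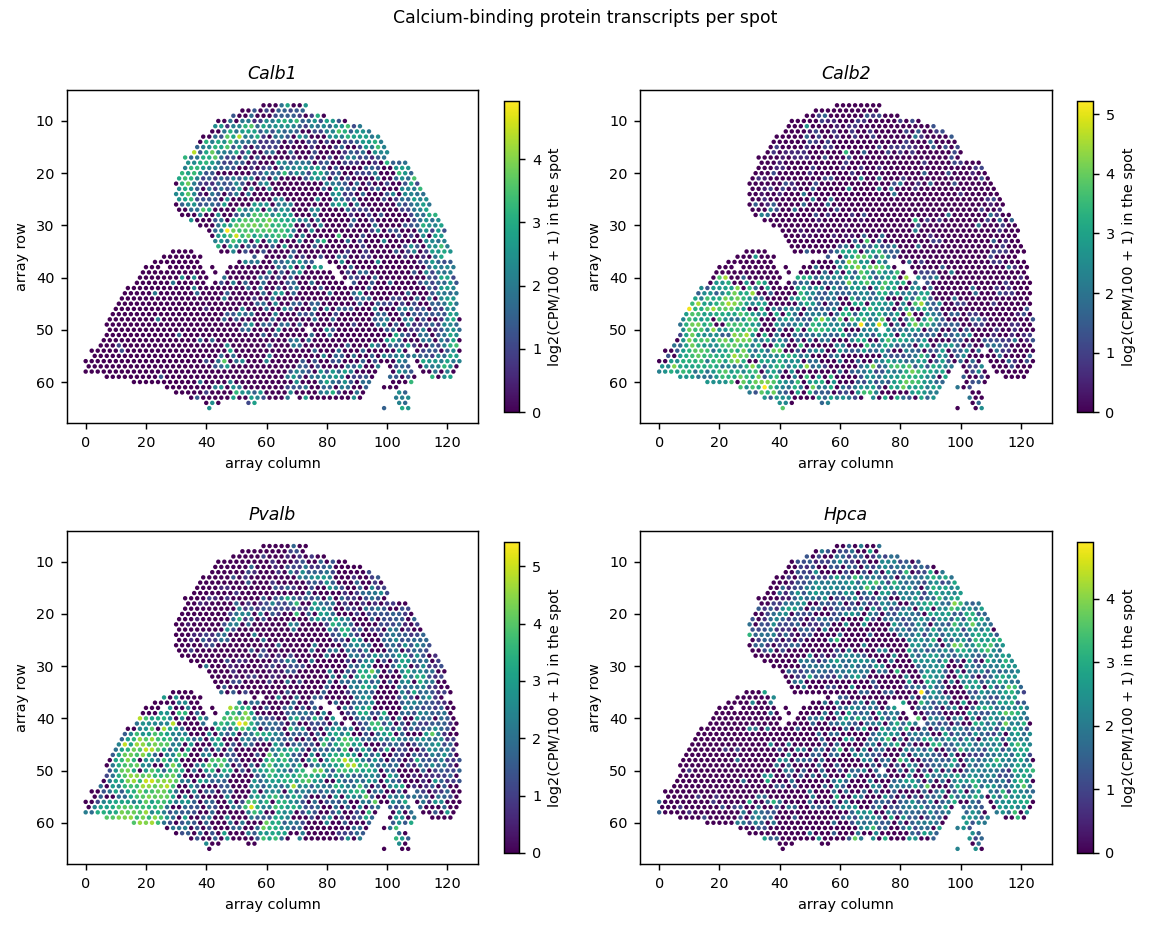
The 4 genes on the section, each spot coloured by log2(CPM/100 + 1), with array column and array row as axes. Calb1 is high over the granule cell band and the upper cortical rim, Calb2 and Pvalb over the hindbrain spots at low columns, and Hpca over cortex.

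The granule cell class was first compared with cortex. Of the 7451 genes with at least 100 counts over both classes, 6.93% were at least 2-fold higher in granule cell spots and 11.0% at least 2-fold lower. Of the 4 members, 1 was higher and 2 were lower by that much, but 1 of these 2, Calb2, falls short of that minimum. Calb1 was 4.48-fold higher in granule cell spots, a log2 ratio of 2.16 (2.04 to 2.28). Pvalb was lower at -2.34 (-2.70 to -1.99). Calb2 was lower at -1.38 (-2.28 to -0.56), but on 15 UMIs against 76, which is short of the 100-count minimum. It was at -0.22 where spots were taken by their own marker UMIs. Per spot, without scaling by depth, Calb2 stood at 0.224 UMIs in the granule cell class and 0.234 in cortex, and Pvalb at 1.10 and 2.25. Hpca was at -0.70 (-0.84 to -0.55), inside 2-fold.

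Against hindbrain, 15.1% of 6551 genes passed 2-fold higher in the granule cell class and 15.3% lower, and the members split 2 and 2. The log2 ratio of granule cell over hindbrain was 8.46 for Calb1 (7.34 to 9.91) and 5.23 for Hpca (4.49 to 6.07). It was -6.89 for Calb2 (-7.73 to -6.16) and -4.93 for Pvalb (-5.29 to -4.60). As a fold, Calb1 was 353 times higher in the granule cell class and Calb2 was 119 times lower.

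Against midbrain, 11.4% of 7155 genes passed 2-fold higher in the granule cell class and 15.6% lower, with 1 member higher and 2 lower. Calb1 was at 3.56 (3.36 to 3.76), Calb2 at -5.83 (-6.67 to -5.10) and Pvalb at -3.33 (-3.69 to -2.99). Hpca was at 0.43 (0.25 to 0.61), inside 2-fold. Per spot, without scaling by depth, Pvalb stood at 1.10 UMIs in the granule cell class and 2.23 in midbrain. In the same order Calb1 stood at 27.9 and 0.475, Calb2 at 0.224 and 2.55, and Hpca at 7.39 and 1.10.

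Hindbrain over cortex split the 4 genes into 2 pairs, beside 7.33% of 7669 genes past 2-fold higher and 10.9% past 2-fold lower. Calb2 was higher in hindbrain at a log2 ratio of 5.51 (5.18 to 5.86) and Pvalb at 2.60 (2.48 to 2.72). Calb1 was lower in hindbrain at -6.30 (-7.75 to -5.17) and Hpca at -5.92 (-6.76 to -5.19). Hindbrain over midbrain gave the same pairs, with 3.41% of 7247 genes past 2-fold higher and 4.91% past 2-fold lower. Calb2 was 2.08-fold higher in hindbrain (1.94 to 2.24) and Pvalb 3.03-fold higher (2.82 to 3.26). Calb1 was at a log2 ratio of -4.91 (-6.37 to -3.76) and Hpca at -4.79 (-5.64 to -4.06).

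Midbrain over cortex, with 7.59% of 8072 genes past 2-fold higher and 7.36% past 2-fold lower, had 1 member higher and 2 lower. Calb2 was 21.9-fold higher in midbrain, a log2 ratio of 4.46 (4.12 to 4.81). Calb1 was lower at -1.39 (-1.61 to -1.18) and Hpca at -1.13 (-1.27 to -0.98). Where spots were taken by marker UMIs summed with their adjacent spots, Calb1 was at -0.82 and Hpca at -0.70. Pvalb was 1.99-fold higher in midbrain (1.81 to 2.19), so the 2-fold line lies inside its interval. Without scaling by depth, Pvalb was at a log2 ratio of -0.01 for midbrain over cortex, and Hpca at 0.62 for granule cell over cortex.

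**Figure D3:**
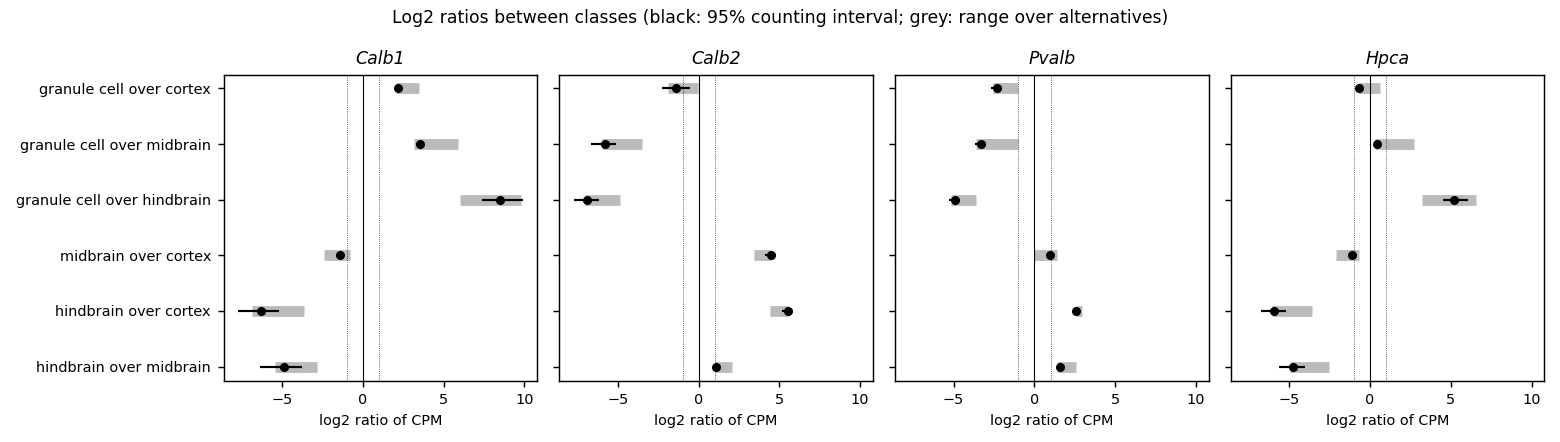
Log2 ratio of CPM for each gene (columns) in each comparison of classes (rows), with 95% counting intervals in black, the range over the alternative settings in grey and dotted lines at 2-fold. Calb1 and Hpca lie left of 0 and Calb2 and Pvalb right of 0 for hindbrain over cortex and over midbrain.

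The full set of 17 regions gave the order of each gene. Neighbours in that order are called separate where the interval of their ratio leaves out 0, which held for 3 of 16 neighbour pairs for Calb1, 5 for Calb2, 4 for Pvalb and 4 for Hpca. Calb1 was highest in C1ql2/Pcdh20 at 1005 CPM, apart from Penk/Adam33 at 414 CPM. Penk/Adam33 and the cortical Clec18a/Igfn1 region, at 378 CPM, did not separate. Clec18a/Igfn1 separated from Mgp/Igf2, a region with 6 meningeal markers, at 199 CPM. From there to Slc18a3/Prph, at 30.6 CPM, no neighbours separated, and Irx2/Cdh23 closed the order.

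Calb2 was highest in Irx2/Cdh23 at 956 CPM, followed by Tph2/Slc18a2, the region led by serotonin genes, at 612 CPM, and Six3/Cartpt at 459 CPM, each apart from the next. Slc6a3/Th, led by dopamine genes, had 365 CPM and did not separate from the white matter region Klk6/Trf at 314 CPM. The lowest Calb2 levels were 14.2 CPM in Myl4/Col5a1 and 8.06 CPM in C1ql2/Pcdh20, which did not separate either. Pvalb was highest in Irx2/Cdh23 at 1215 CPM and in the 18 spots of Slc18a3/Prph, the cholinergic region, at 1033 CPM, with no separation between them. All 18 of those spots had a Pvalb UMI, between 1 and 32 with a median of 6. Hpca was highest in Clec18a/Igfn1 at 511 CPM, apart from Tshz2/Nrep at 367 CPM, and its lowest neighbours were Slc18a3/Prph at 30.6 CPM and Irx2/Cdh23 at 7.11 CPM.

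**Figure D4:**
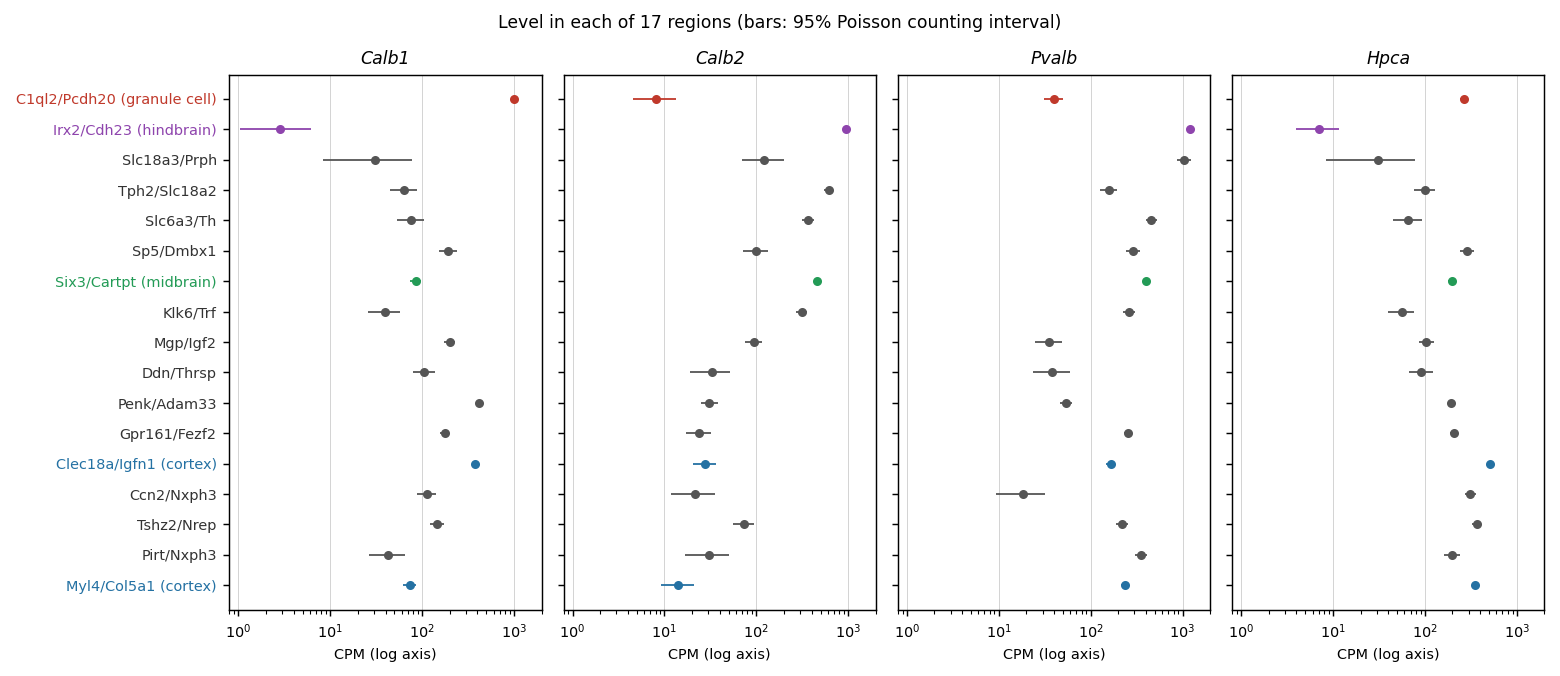
Level of each gene in CPM (log axis) in the 17 regions, named by their leading genes, with 95% Poisson counting intervals as bars and class regions coloured. Irx2/Cdh23 is the lowest region for Calb1 and Hpca and the highest for Calb2 and Pvalb.

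The cortical regions differed among themselves. Clec18a/Igfn1 spots held between 0 and 19 Calb1 UMIs with a median of 4, and Myl4/Col5a1 spots between 0 and 5 with a median of 0. Calb1 was 5.17-fold higher in Clec18a/Igfn1, a log2 ratio of 2.37 (2.10 to 2.65), in a comparison that put 1.77% of genes past 2-fold in that direction. Hpca was higher there by less than 2-fold, at 0.54 (0.39 to 0.69), and Pvalb lower at -0.50 (-0.71 to -0.28). The Clec18a/Igfn1 spots held 681 of the 815 Calb1 UMIs of cortex.

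Tshz2/Nrep had more Calb2 than Myl4/Col5a1, with 60 UMIs in 77 spots against 26 in 187, a log2 ratio of 2.36 (1.67 to 3.08). Together these UMIs are short of the 100-count minimum. Its Pvalb, at -0.08 (-0.34 to 0.17), and Hpca, at 0.06 (-0.14 to 0.26), did not differ from Myl4/Col5a1 beyond counting error.

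The 46 spots of Ccn2/Nxph3 had the lowest Pvalb level in the order, at 18.2 CPM, not separated from Mgp/Igf2 at 35.4 CPM. They held 12 Pvalb UMIs, at most 2 in a spot, against 430 in the Myl4/Col5a1 spots, at most 23 in a spot. The log2 ratio of Ccn2/Nxph3 over Myl4/Col5a1 was -3.69 (-4.65 to -2.87), with 3.85% of genes past 2-fold lower. Hpca was near level between these regions at -0.17 (-0.40 to 0.06). Sst, the somatostatin gene of another interneuron group, stood at 2643 CPM in Ccn2/Nxph3 and 1544 CPM in Myl4/Col5a1, a log2 ratio of 0.78 (0.69 to 0.86). Gad2, a GABA synthesis enzyme, was at 0.31 (-0.23 to 0.83). Syt2, a synaptotagmin of fast synapses, had 1 UMI in Ccn2/Nxph3 against 45 in Myl4/Col5a1, and Vip, an interneuron peptide gene, was lower at -1.37 (-2.26 to -0.59). Further genes of GABAergic neurons were mixed. Kcnc1 was lower at -0.92 (-1.23 to -0.62) and Npy higher at 0.63 (0.41 to 0.83). Kcnc2, at 0.04 (-0.23 to 0.30), Cox6a2, at -0.29 (-0.75 to 0.15), and Lhx6, at -0.52 (-1.31 to 0.20), did not differ beyond counting error.

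The granule cell region was also set beside Penk/Adam33, Gpr161/Fezf2 and Ddn/Thrsp. Over Penk/Adam33, the region with the next highest Calb1, it had more Calb1 at a log2 ratio of 1.28 (1.18 to 1.38) and less Calb2 at -1.94 (-2.83 to -1.14), with 6.75% of genes past 2-fold higher and 9.34% past 2-fold lower. Pvalb was low in both, at 39.8 CPM in C1ql2/Pcdh20 and 54.3 CPM in Penk/Adam33. Over Gpr161/Fezf2, Calb1 was higher at 2.52 (2.35 to 2.69) and Pvalb lower at -2.67 (-3.04 to -2.31), where 7.93% of genes were higher and 9.26% lower by 2-fold. Over Ddn/Thrsp, which adjoins it, Calb1 was higher at 3.25 (2.87 to 3.67) and Hpca at 1.53 (1.11 to 1.99), where 21.4% of genes were at least 2-fold higher.

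Penk/Adam33 and Clec18a/Igfn1 did not differ beyond counting error in Calb1, with a log2 ratio of 0.13 (-0.01 to 0.27), or in Calb2, at 0.15 (-0.36 to 0.68). Pvalb was lower in Penk/Adam33 at -1.62 (-1.90 to -1.34) and Hpca at -1.40 (-1.55 to -1.25), where 2.04% of genes were at least 2-fold lower. Gpr161/Fezf2 over Clec18a/Igfn1 had less Calb1 at -1.11 (-1.30 to -0.92) and less Hpca at -1.29 (-1.46 to -1.12), where 4.38% of genes were lower by 2-fold, and more Pvalb at 0.60 (0.39 to 0.82).

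The regions beside the midbrain class each carried a different mix. Tph2/Slc18a2 had more Calb2 than Six3/Cartpt, at a log2 ratio of 0.41 (0.24 to 0.58), and less Pvalb, at -1.34 (-1.66 to -1.04), in a comparison with 1.97% of genes past 2-fold lower. Slc18a3/Prph ran the other way, with Pvalb at 1.37 (1.10 to 1.63) and Calb2 at -1.91 (-2.72 to -1.20). There 2.75% of genes were past 2-fold higher and 12.8% lower. Sp5/Dmbx1 had more Calb1 at 1.17 (0.79 to 1.54) and less Calb2 at -2.22 (-2.70 to -1.78), with 2.18% of genes past 2-fold higher and 3.0% lower. In Slc6a3/Th, Hpca was lower at -1.59 (-2.15 to -1.07), with 1.89% of genes past 2-fold lower, while Calb1 was at -0.17 (-0.71 to 0.34).

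Within Slc6a3/Th, 73 spots had a UMI of Th or Slc6a3, the dopamine synthesis and transporter genes, and 28 had neither. The 73 spots held 377535 UMIs of all genes and the 28 spots 110229, so those with neither were shallower on average. There a missed UMI cannot be told from an absent transcript. Pvalb was lower in the spots with such a UMI, at 379 CPM (319 to 446) against 726 CPM (575 to 903). Calb1 stood at 84.8 CPM (58.0 to 120) in the spots with one and 45.4 CPM (14.7 to 106) in those without, and these intervals overlap. Calb2 intervals overlapped as well, at 387 CPM (327 to 455) and 290 CPM (199 to 410).

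Distance from the granule cell region was counted in grid steps. Calb1 stood at 1005 CPM within the region, 245 CPM at 1 step, 108 CPM at 2 and 47.4 CPM at 3, then 138 CPM at 4 and 173 CPM at 5 or more. Prox1, a transcription factor of dentate granule cells, stood at 411, 229, 130, 47.4, 44.7 and 17.8 CPM over the same steps. At 1 step Calb1 was at 24.4% of its level in the region. Of 3 granule cell markers, C1ql2 was at 27.1% of its level there, Dsp at 48.2% and Prox1 at 55.7%. Calb2 stood at 8.06 CPM within the region, 16.3 at 1 step, 92.2 at 2, 172 at 3, 179 at 4 and 238 CPM at 5 or more. The level at 1 step rests on 3 UMIs, and its interval (3.37 to 47.7) overlaps that within the region (4.51 to 13.3). At 1 step the spots belonged to Ddn/Thrsp (22 spots) and Mgp/Igf2 (16 spots). Within Ddn/Thrsp, Calb1 stood at 210 CPM at 1 step (128 to 324) and 79.4 CPM at 3 or more (52.7 to 115). Within Mgp/Igf2 it stood at 283 CPM at 1 step (183 to 418), 118 CPM at 2 (62.9 to 202) and 201 CPM at 3 or more (172 to 233), and the first and last of these intervals overlap. At 2 steps, the Mgp/Igf2 spots held 16 Calb2 UMIs and the Ddn/Thrsp spots 1. Within Ddn/Thrsp, Calb2 stood at 10.5 CPM at 1 step, 13.4 at 2 and 42.5 at 3 or more (23.8 to 70.1). Within Mgp/Igf2, Calb2 stood at 22.6 CPM at 1 step (2.74 to 81.7), 145 at 2 (83.2 to 236) and 94.5 at 3 or more (74.9 to 118).

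**Figure D5:**
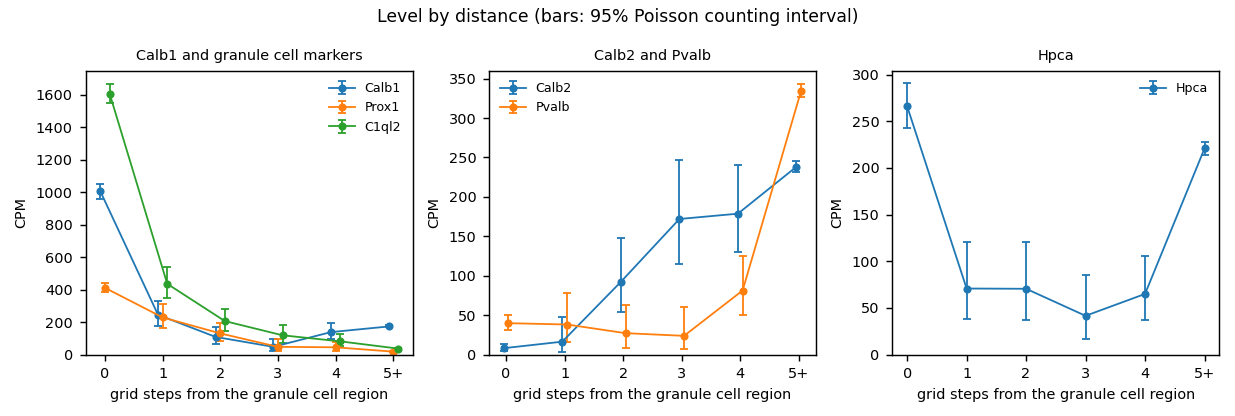
Level in CPM against grid steps from the granule cell region, with 95% Poisson counting intervals, for Calb1 with the granule cell markers Prox1 and C1ql2 (left), Calb2 and Pvalb (middle) and Hpca (right). Calb1 drops to 245 CPM at 1 step, and Calb2 is at its lowest, 8.06 CPM, inside the region, with an interval that overlaps the one at 1 step.

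The spots with most UMIs of a gene were also described. They were picked by the same counts that are summed here, so a share above their part of all UMIs comes partly from the choice. Whether a gene gathers in few spots was not tested. In the granule cell class, the 7 spots with most Calb1 held 30.7% of its Calb1 UMIs and 21.3% of all UMIs. In midbrain, the 48 spots with most Calb1 held 50.9% of its Calb1 UMIs and 12.3% of all UMIs. In hindbrain, the 19 spots with most of each gene held 26.0% of its Calb2 UMIs and 26.0% of its Pvalb UMIs, with 15.2% and 15.3% of all UMIs.

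Genes of GABAergic neurons were set beside Pvalb and Calb2, since both mark interneurons in cortex. The 189 hindbrain spots had 2562 Pvalb UMIs but 32 of Gad2, 4 of Slc32a1, the vesicular GABA transporter, and 0 of Lhx6, a factor of cortical interneurons. The cortex spots had 730 Pvalb UMIs with 210 of Gad2, 58 of Slc32a1 and 130 of Lhx6. Syt2 and Kcnc1, a potassium channel of fast-firing neurons, were higher in hindbrain, as Pvalb was: their log2 ratios over cortex were 3.28 (2.95 to 3.62) and 1.32 (1.21 to 1.43). Kcnc2, a channel of the same family, was lower at -1.82 (-2.09 to -1.57), Gad2 at -1.93 (-2.51 to -1.39), and Cox6a2 had 1 UMI in hindbrain against 377 in cortex. Of 13 GABAergic and interneuron genes with enough counts, 2 were at least 2-fold higher in hindbrain than in cortex and 8 lower, beside 7.33% and 10.9% of all genes, with a median log2 ratio of -1.93 against -0.02 over all genes. Gad1 had too few counts for any of the 6 comparisons.

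In the granule cell class, 0 of 11 such genes were at least 2-fold higher than in cortex and 8 were lower, beside 6.93% and 11.0% of all genes, with a median log2 ratio of -2.23 against 0.01 over all genes. Sst stood at 30.6 CPM there and 1127 CPM in cortex, and Vip at 4.30 and 131 CPM. Pvalb was lower in the same class, at -2.34. Calb2 was at -1.38, but on 15 UMIs against 76, which is short of the count minimum. Where spots were taken by their own marker UMIs, Calb2 was at -0.22.

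Other EF-hand genes were read from a list of 29, of which 28 were in the panel. For granule cell over cortex, 4 of 17 with enough counts (23.5%) were at least 2-fold higher and 4 lower, beside 6.93% and 11.0% of all genes, with a median log2 ratio of 0.07 against 0.01 over all genes. The higher ones included Necab2 at 2.03 (1.67 to 2.40), Hpcal1, a relative of hippocalcin, at 1.93 (1.72 to 2.16) and Kcnip2, a potassium channel partner, at 1.63 (1.47 to 1.78). The lower ones included Efhd2 at -2.25 (-2.42 to -2.07) and Cabp1 at -2.23 (-2.44 to -2.03). For hindbrain over cortex, 3 of 18 were higher and 4 lower, beside 7.33% and 10.9% of all genes, with a median log2 ratio of 0.02 against -0.02. Cabp7 was highest at 4.89 (4.69 to 5.09), and Hpcal4 and Kcnip2 were lowest at -5.16 (-5.63 to -4.72) and -5.12 (-6.26 to -4.18). Hpcal1 was higher in hindbrain at 2.07 (1.86 to 2.28), in the direction opposite to Hpcal4 and Hpca.

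Across the 17 regions, Calb1 and Hpca had a Pearson r of 0.72 on log2(CPM + 10), and Calb2 and Pvalb 0.58. The 4 cross pairs were negative: -0.65 for Calb1 with Calb2, -0.67 for Calb1 with Pvalb, -0.69 for Calb2 with Hpca and -0.48 for Pvalb with Hpca. Over the 2485 single spots the same 6 values lay between -0.24 and 0.32. These describe 1 section, and the regions share a library. Calb1 and Calb2 were both seen in 404 spots, Calb1 alone in 647 and Calb2 alone in 732, and the spots with both were deeper, with a median of 7719 UMIs against 4598 in spots with neither.

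The genes with the pattern most like each member across regions were found among 6866 with at least 500 UMIs. For Calb1 the nearest was Pcdh8, a protocadherin, with r = 0.94, followed by Ppfia2, Rgl1, Limd2 and Rbm24. For Calb2 they were Kank4, with r = 0.91, Irx2, Tnrc6a, Irx1 and Paip2, and Irx2 and Irx1 lead the hindbrain region. For Pvalb they were Lynx1, with r = 0.95, Nap1l2, Ifitm10, Syt2 and Vamp1, a vesicle protein of fast synapses. For Hpca they were Tmem191c, with r = 0.95, Dtx4, Nptx1, Astn1 and Car11. Of the genes named here, Pcdh8, Kank4, Irx2, Irx1 and Vamp1 were among the variable genes used for clustering, and Irx2 was a hindbrain marker. Their likeness across regions is therefore not independent of how the regions were made. By rank correlation, 2 of the 5 genes were shared for Calb1, 0 for Calb2, 2 for Pvalb and 1 for Hpca. By correlation over single spots, 0 of the 5 were shared for Calb1, 1 for Calb2, 2 for Pvalb and 0 for Hpca.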

How the data were processed

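Probe-based capture on Visium CytAssist slides gave the data, per the labels' protocols. The authors deposited whole-number UMI counts for each gene in each spot, unnormalized, which Space Ranger 3.1.1 wrote per the file headers. The build is mm10, per the submitters' processing notes. The probe set is not stated there. The matrix, barcode and feature files of the 2 samples were identical, so the library was used once. Spots marked as tissue in the WT position list with at least 500 UMIs were kept (2485, leaving out 2). The G2-3 list marks 2969 tissue spots, of which 751 have no counts.

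Spots were clustered with scanpy 1.11.5 (2000 variable genes, 30 principal components, 15 neighbours, Leiden resolution 1, seed 0). The 4 genes, the EF-hand list and the GABAergic list were left out of the variable genes, but genes that vary with them were not. A cluster joined a class if at least 3 of that class's markers reached a log2 fold of 1 over all other spots (CPM plus 10) with at least 10 UMIs, more than of any other neural class, if its neural marker of highest fold was of the class, and if no other neural class had more markers among its 10 leading genes. This rule was set after the clusters were seen. The genes, lists and markers were chosen with earlier results of these data known. No doublet caller and no deconvolution were run.

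UMIs were summed over the spots of each region and divided by the region's UMI total to give CPM. Levels have exact Poisson intervals, shares exact binomial intervals, and log2 ratios exact conditional (Clopper-Pearson) intervals at 95%, computed with scipy 1.17.1. The log2 ratios were also run on simulated independent Poisson counts. That is the model their intervals assume, so the run checks the calculation and not the spread between spots. PCR copies are collapsed by UMIs, but spots are not independent animals, so no p-value is given. Genes needed 100 counts over both regions. A count of 0 was set to 3 counts for a ratio. Named genes were the 4 members, from the EF-hand list up to 3 past 2-fold in each direction per comparison, measured GABAergic genes, and the 5 genes most like each member across regions. The region pairs were chosen after their values were seen. Alternatives changed the clustering, the spots, the scaling (TMM of edgeR 4.0.16, or none), the count minimum and the fold.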

Additional observations from a re-analysis of the deposited data

Results flagged for a closer look

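Barcodes outside the tissue of the WT list carried UMIs of all 4 genes, above the 3 counts that a count of 0 allows. The 235 such barcodes held 98 UMIs of Calb1, 100 of Calb2, 165 of Pvalb and 149 of Hpca among 697435 UMIs in all. Most lay on the 173 barcodes next to tissue, which held 89 UMIs of Calb1, 83 of Calb2, 155 of Pvalb and 137 of Hpca. Their levels were 141 CPM off tissue and 245 CPM on tissue for Calb1, 143 and 213 CPM for Calb2, 237 and 298 CPM for Pvalb, and 214 and 219 CPM for Hpca. The cause was not tested.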

How the results depend on the processing

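The 24 log2 ratios of the 4 genes were recomputed under alternatives, which gave 280 values. Of these, 197 moved by less than the counting interval, 81 moved by more and 2 changed sign. Both sign changes came with mean UMIs per spot, not scaled by depth: Hpca for granule cell over cortex, at 0.62, and Pvalb for midbrain over cortex, at -0.011. The alternatives with 2 further regions in cortex or in midbrain were chosen after seeing the data. Spots taken by their own markers shared 22.2% of the cortex and 13.3% of the midbrain spots with the clusters.

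The count of genes past 2-fold depended on the settings. With spots taken by their own markers it was 1257 for granule cell over midbrain and 713 for midbrain over cortex, and with adjacent spots added 779 for midbrain over cortex, where 1 of the 4 genes passed. Unscaled, it was 5446 for granule cell over cortex, 6535 over midbrain and 4603 over hindbrain, 3829 for midbrain over cortex and 3192 for hindbrain over midbrain. The unscaled split into higher and lower genes was 5191 and 255 for granule cell over cortex, 6331 and 204 over midbrain, 4277 and 326 over hindbrain, 150 and 3679 for midbrain over cortex, and 3069 and 123 for hindbrain over midbrain. The scaled splits were 516 and 818, 813 and 1117, 991 and 1005, 613 and 594, and 247 and 356, in the same order. With a minimum of 20 counts, more genes were tested, and the counts were 2490, 3534 and 3663 for granule cell over cortex, midbrain and hindbrain, 2141 for midbrain over cortex, and 2465 and 1424 for hindbrain over cortex and midbrain. At 4-fold they were 461, 732, 806, 331, 523 and 184 in that order, with 1 of the 4 genes past it for midbrain over cortex and 2 for hindbrain over midbrain. The cause of the changes with the choice of spots was not tested.

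The lower and higher array columns gave no value where a class had under 10 spots there: cortex had 2 spots in the lower columns, and the granule cell class 3 and hindbrain 0 in the higher ones. No paired analysis was possible because the 2 samples hold the same matrix and there are no replicates. Depth limits the lowest levels, such as the 6 Calb1 and 15 Hpca UMIs of hindbrain and the 15 Calb2 UMIs of the granule cell class.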
